A study of Mus musculus with 4 samples.

Results

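The genes described here mark dendritic cells (DC) that have matured and are able to leave a tissue: Ccr7, Fscn1, Ccl17, Ccl22, Il12b, Il4i1, Cacnb3 and Socs2. They were chosen by name, with no threshold on a measured value, and are 8 of the 31053 genes listed in each matrix. Earlier results of these data were known at that choice, so counts of members called are not independent evidence. All 8 were counted in 4 single-cell RNA libraries, 2 from 5 days and 2 from 14 days after a transient occlusion of the middle cerebral artery, a model of ischemic stroke in which blood flow is blocked and then restored. The cells of every library were CD45high leukocytes sorted by flow cytometry from the injured hemisphere of C57/BL6 mice perfused with saline. Sorting, strain and injury were thus shared. The 2 groups differed in time, and also in the size of the smallest cells deposited, as given below. Age, genotype beyond the strain and the number of mice behind a library are not given in the labels, and libraries of uninjured brain were not analysed here. The p-values below therefore measure the spread between libraries, which may be partly technical.

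An immature dendritic cell samples antigen in a tissue. When it matures it switches on the chemokine receptor CCR7, reshapes its cytoskeleton and follows CCL19 and CCL21 along lymphatic vessels to the draining lymph node, where it presents antigen on MHC class II to T cells. Mature cells also make chemokines that attract T cells bearing CCR4, cytokines of the IL-12 family, and enzymes and signalling inhibitors that restrain the T-cell response.

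After removal of 84 barcodes with fewer than 200 genes or over 10% mitochondrial UMIs (unique molecular identifiers, each counting 1 captured RNA molecule), 10841 of 10925 cells were used, between 2308 and 3447 a library. Total UMIs were 9288054 to 13610119 a library and the median cell held 2882 to 4230. The smallest barcode held 500 and 505 UMIs in the libraries of day 5 but 1180 and 1317 in those of day 14. Cells as small as the smallest of day 5 were thus absent on day 14. The part of this floor in cell shares and detection was not tested. A count of 65 barcodes occurred in more than 1 library. Cells were assigned to classes by gates of marker genes that exclude all 8 members. A mature cell had at least 3 UMIs over at least 2 of 10 other genes known from mature dendritic cells (Zmynd15, Nudt17, Apol7c, H2-M2, Tbc1d4, Slco5a1, Stap2, Il15ra, Mreg and Cd200), and was called a mature DC if it also had at least 10 UMIs of the class II genes H2-Aa, H2-Ab1 and H2-Eb1. Conventional DC were the mature DC together with cDC1 (Xcr1, Clec9a, Gcsam and Itgae), cDC2 (Cd209a, Clec10a and Mgl2) and cells with Epcam. Cells with class II but no subset marker are called other class II cells below. A second set of 82 cells passed the mature gate with under 10 class II UMIs and passed no gate of another class. Cells of other classes with mature-gate UMIs stayed in those classes, such as 4, 12, 0 and 1 microglia with at least 3 such UMIs in the 4 libraries. The 82 cells were separated after the data were seen and are called class II-low mature cells. Just outside the gate, the 70 class II cells with 2 mature-gate UMIs had a median of 0 members detected and a mean of 1.04 Ccr7 UMIs, with none in 57 of them. Just inside it, the 11 mature-gate cells with 3 such UMIs had a median of 2 members and a mean of 9.09 Ccr7 UMIs, with none in 4 of them.

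Few cells carried most of the RNA of each gene. Ccr7 had 5096 UMIs in 811 cells, and 91 of those cells held 50% of them. Il12b had 333 UMIs in 76 cells, with 50% in 10 cells, and Ccl17 had 1127 UMIs in 140 cells, again with 50% in 10 cells. A single cDC2 of day 5 replicate 1 held 108 Ccl17 UMIs. A level of Ccl17 or Il12b in a class is thus often the level in very few cells.

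**Figure D1:**
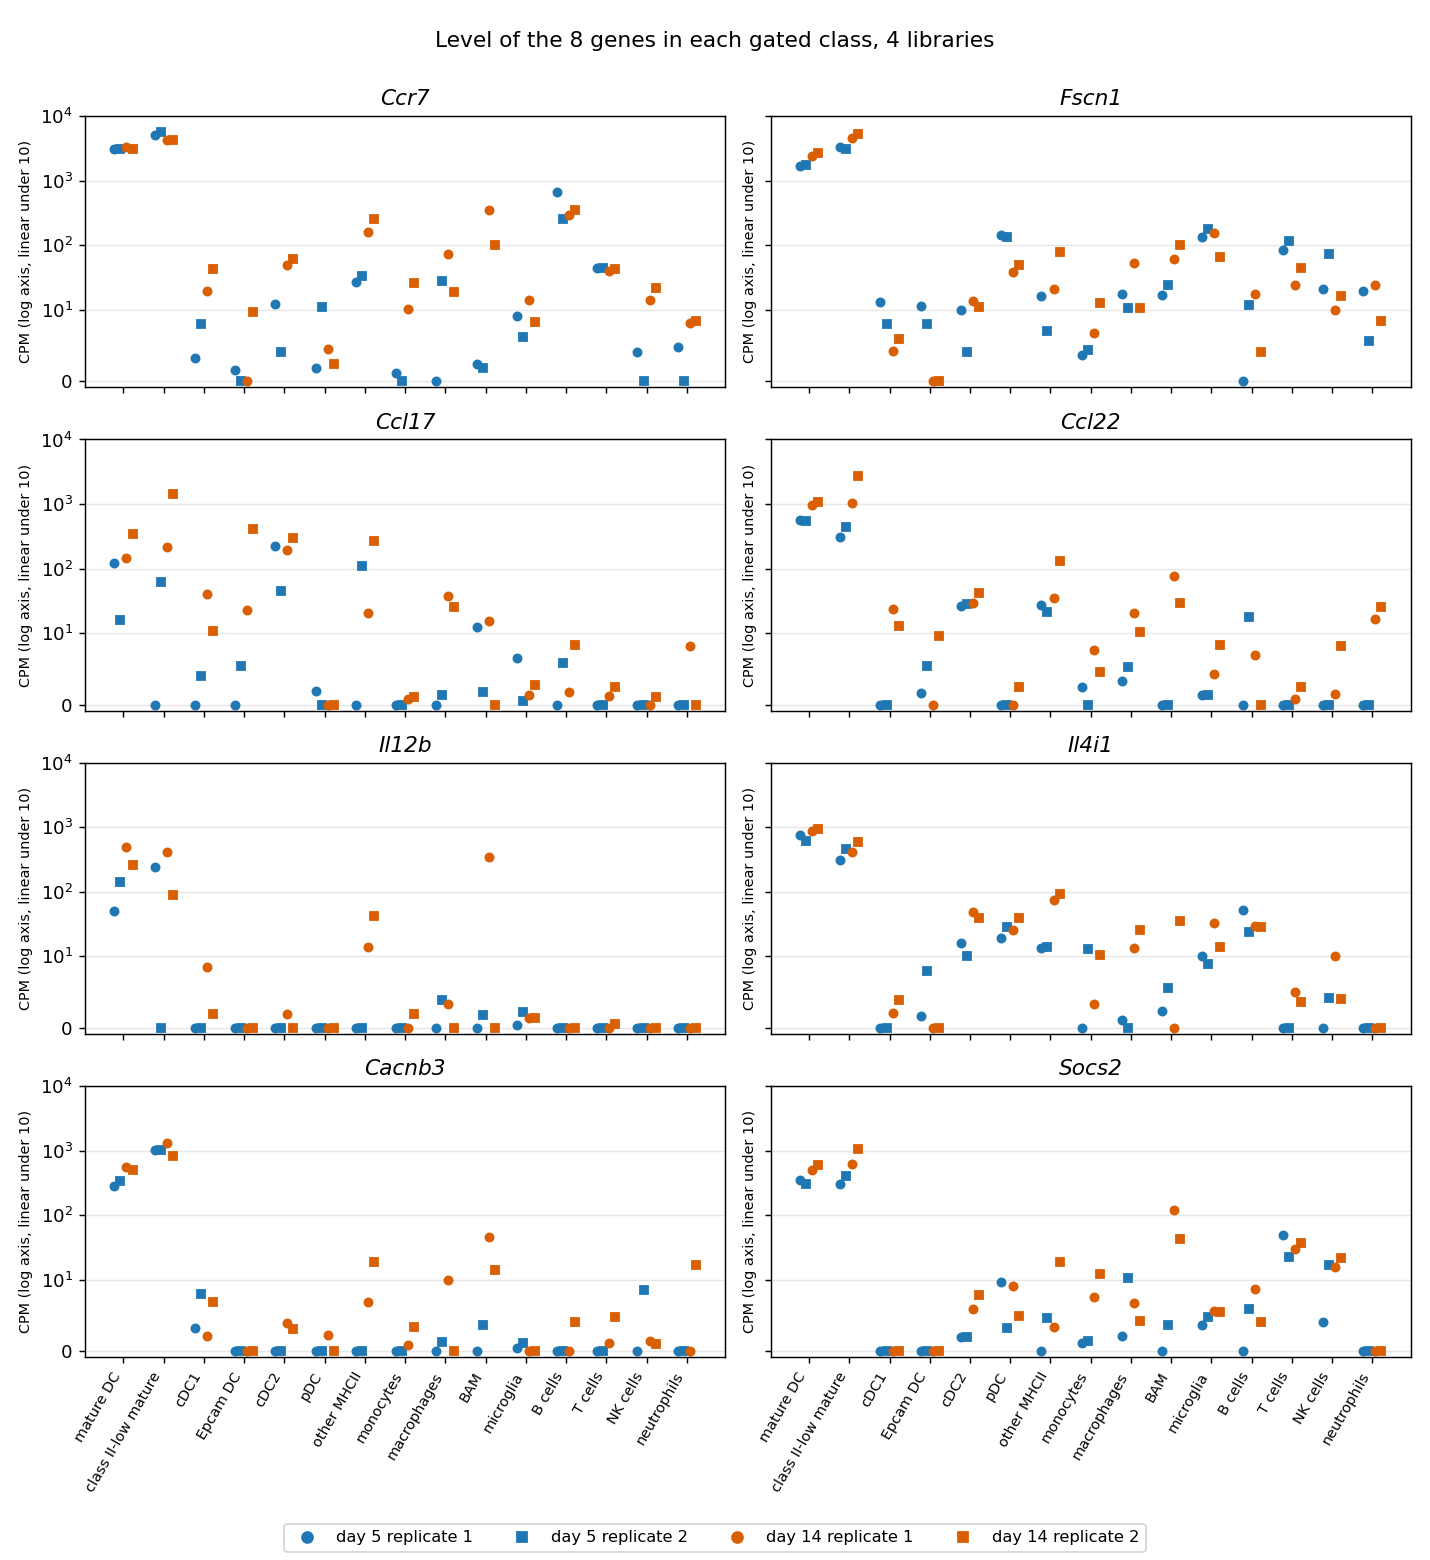
Level of each gene in each cell class, as UMIs per 1000000 UMIs of the class (CPM) on a logarithmic axis, with 1 point per library and colour by day. The mature classes lie to the high side for Ccr7, Fscn1 and Cacnb3, while Ccl17 also reaches high values in cDC2 and Fscn1 in microglia.

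Ccr7 encodes the chemokine receptor that directs mature DC to lymphatic vessels (GRCm38 chr11:99144196-99155077, minus strand). In mature DC its level was 3126 and 3084 CPM in the 2 libraries of day 5, and 3335 and 3072 CPM in those of day 14. The libraries of both days overlapped closely. Other conventional DC held 5.69 and 3.58 CPM on day 5 and 33.4 and 47.5 CPM on day 14. Within each library mature DC lay above the other conventional DC, and the difference was 7.41 ± 0.40 on the log2 scale (SE, 4 libraries, edgeR's quasi-likelihood test, adjusted p = 6.13e-09), or 8.08 without day 14 replicate 2. A Ccr7 UMI was found in 71.4% and 83.3% of mature DC on day 5 and in 97.1% and 92.3% on day 14, against 0 to 1.92% of neutrophils, a class that is not known for the receptor. Thinned to 1000 UMIs a cell, because the median neutrophil held only 1265 to 2323 UMIs against 3433 to 5079 in mature DC, the shares were 71.4%, 83.3%, 77.1% and 86.2% against 0 to 1.85%. B cells, which use CCR7 to enter lymph nodes, held 671 and 258 CPM at 5 days, and 289 and 356 CPM later.

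Fscn1 encodes fascin, which bundles actin filaments in the dendrites of mature DC (chr5:142960343-142973185, plus strand). Mature DC held 1663 and 1726 CPM on day 5 and 2409 and 2650 CPM on day 14. Neither earlier library reached the later ones, but the day difference of 0.58 was not called in mature DC alone (log2, edgeR, adjusted p = 0.117). Other conventional DC held 6.27 to 11.4 CPM in all 4 libraries, a difference of 8.06 ± 0.22 (log2 and SE, adjusted p = 9.55e-12). Unlike Ccr7, fascin RNA was also plain in microglia, at 133 and 180 CPM on day 5 and 152 and 66.5 CPM on day 14. Mature-gate cells held 25% and 12.3% of all Fscn1 UMIs at 5 days but 67.7% and 83.9% at 14 days, whereas microglia held 54.3% and 66.4% and then 9.29% and 2.43%. These shares also follow cell numbers. Microglia numbered 866 and 1494 cells on day 5 and 169 and 123 on day 14, and mature-gate cells 31 and 33 and then 60 and 97. In mature DC without a microglial-gate UMI the Fscn1 level was still 1657, 1163, 2486 and 2995 CPM, in the order of the libraries above.

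Ccl17 and Ccl22 encode the 2 ligands of CCR4, a receptor of regulatory and Th2 T cells. They lie beside each other on chromosome 8, both on the plus strand (Ccl22 at chr8:94745590-94751699 and Ccl17 at chr8:94810453-94812036), 58753 bases apart with 1 protein-coding gene, Cx3cl1, between them. The upstream stretches of these neighbours are shown because their RNAs were found together in some cells and parted in others. They are RefSeq sequence of GRCm38.p6, at chr8:94810203-94810452 for Ccl17 and chr8:94745434-94745589 for Ccl22. Capitals mark matches, on either strand, to the STAT-type motifs TTCNNNGAA and TTCNNNNGAA and to the ETS-type motif GGAAGT.
Ccl17: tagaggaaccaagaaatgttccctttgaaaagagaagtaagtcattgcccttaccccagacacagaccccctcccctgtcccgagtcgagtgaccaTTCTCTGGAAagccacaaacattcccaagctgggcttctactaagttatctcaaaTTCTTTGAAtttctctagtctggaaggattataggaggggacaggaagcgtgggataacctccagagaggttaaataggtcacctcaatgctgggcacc
Ccl22: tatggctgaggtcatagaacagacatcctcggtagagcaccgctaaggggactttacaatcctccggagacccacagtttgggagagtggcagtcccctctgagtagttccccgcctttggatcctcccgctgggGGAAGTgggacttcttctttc
The Ccl17 stretch held TTCTCTGGAA at position -154 and TTCTTTGAA at position -99 from the RefSeq start site, and the Ccl22 stretch held GGAAGT at -115. Over the 32851 promoters of the table, TTCNNNGAA occurred in 8.30%, TTCNNNNGAA in 6.95% and GGAAGT in 23.8%. Among the 7 promoters of members they occurred in 1, 1 and 3. A kappa B motif was searched too and occurred in 0 of those 7, against 8.46% of all promoters. These are matches of letters and not measured binding.

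In mature DC Ccl22 stood at 571 and 543 CPM on day 5 and 960 and 1070 CPM on day 14, with no overlap between the days. The day difference of 0.87 was not called in these cells alone (log2, edgeR, adjusted p = 0.0755). Other conventional DC held 10.0 to 25.6 CPM, a difference of 5.60 ± 0.19 (log2 and SE, adjusted p = 6.41e-11). Ccl17 stood at 120 and 16.0 CPM in mature DC on day 5 and at 148 and 341 CPM on day 14. In other conventional DC it stood at 78.9, 22.4, 117 and 137 CPM in the same order, so mature DC were higher in 3 of 4 libraries and the difference was 0.97 ± 0.24 (log2 and SE, adjusted p = 0.0082). Without day 14 replicate 2 that difference was 0.48 with an adjusted p of 0.361, and DESeq2 gave 0.80 with an adjusted p of 0.108. Ccl17 was the one member whose level in cDC2 (223, 44.9, 195 and 295 CPM) was of the size of that in mature DC. In day 5 replicate 1, 108 of its 111 UMIs in cDC2 came from the single cell above.

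Il12b encodes the p40 subunit shared by IL-12 and IL-23, cytokines that steer T cells (chr11:44400063-44414033, plus strand). Mature DC held 50.1 and 144 CPM on day 5 and 489 and 263 CPM on day 14. Other conventional DC held 0 UMIs in both day 5 libraries, which allows up to 2.13 and 2.69 CPM, and 4.92 and 1.14 CPM on day 14, and the fitted difference was 7.43 ± 0.38 (log2 and SE, adjusted p = 3.65e-09), or 8.15 without day 14 replicate 1. An Il12b UMI was found in 11.1% to 28.6% of mature DC of a library, and in 6.15% to 22.9% after thinning to 1000 UMIs a cell. Outside these cells a level of 352 CPM in border-associated macrophages of day 14 replicate 1 came from 23 UMIs in 1 cell.

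Il4i1 encodes a secreted amino acid oxidase that restrains T cells (chr7:44816387-44840809, plus strand). Its interval overlaps Nup62 on the same strand and Atf5 and Tbc1d17 on the other, so its counts are uncertain. Mature DC held 772, 623, 869 and 927 CPM and other conventional DC 6.42, 7.17, 25.6 and 16.6 CPM, a difference of 6.04 ± 0.24 (log2 and SE, adjusted p = 2.59e-10). Cacnb3 encodes a beta subunit of voltage-gated calcium channels (chr15:98630840-98644529, plus strand), and Socs2 a suppressor of cytokine signalling (chr10:95385362-95417180, minus strand). In mature DC Cacnb3 stood at 281 and 336 CPM on day 5 and 551 and 508 CPM on day 14, and Socs2 at 351 and 304 and then 506 and 589 CPM. The libraries of the days did not overlap for either gene, but neither day difference was called in mature DC alone. In edgeR Cacnb3 differed by 0.80 (log2, adjusted p = 0.178) and Socs2 by 0.74 (adjusted p = 0.195). The share of all genes that separated the days in this way was not counted. Against other conventional DC, Cacnb3 was higher by 7.31 ± 0.27 and Socs2 by 7.93 ± 0.27 (log2 and SE, adjusted p = 9.75e-11 and 6.41e-11). Cacnb3 was the most restricted member, with 75% to 86.6% of its UMIs of a library in mature-gate cells. No Socs2 UMI was found in cDC1 or cells with Epcam in any library, which allows a level of up to 2.96 to 11.9 CPM in cDC1 (3 counts of the class total, counting error only).

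All 8 members were thus higher in mature DC than in other conventional DC, beside 25.6% of 5777 genes called in either direction and 14% called higher. The gate genes were picked as known companions of these members, so the count is not independent evidence of the direction. Genes of the same process from lists made for this tissue, again with earlier results known, moved as follows. Of 8 genes of the NF-kappa B pathway, which drives maturation, 7 were higher in mature DC, among them Relb (3.96), Birc2 (3.77), Traf1 (2.79) and Nfkb2 (2.12, all log2 differences). Of 10 costimulation genes 7 were tested and 5 were higher, including Cd274 (3.80), Cd80 (2.38), Cd40 (2.33) and Icosl (1.53). All 12 other mature DC genes were higher, led by Tnfrsf4 (8.78), Lad1 (8.06), Tnfrsf9 (6.56) and Serpinb6b (6.51). The list medians were 2.05, 1.53 and 4.31, against -0.04 over all genes tested. Of the other SOCS genes, Socs1 was higher by 2.60 and Socs3 differed by -0.70, a call in the lower direction. Of 7 other IL-12 family genes only Ebi3 had enough counts, and it was higher by 1.14. None of 4 further genes of the CCR7 and CCR4 axis had enough counts to be tested.

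**Figure D2:**
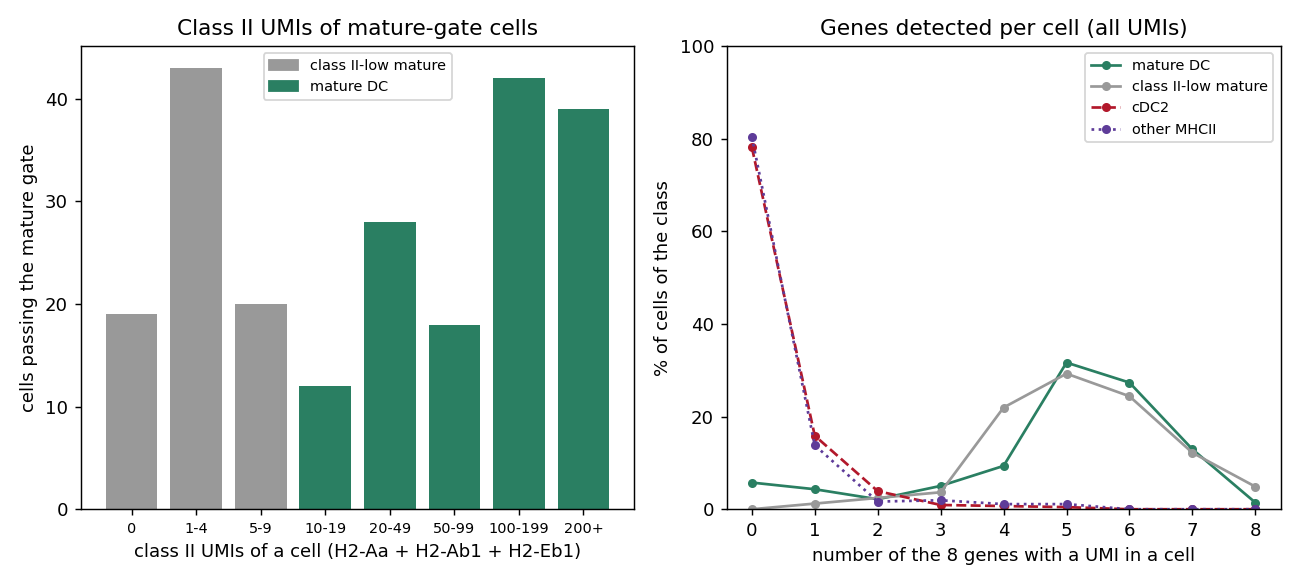
Left, number of mature-gate cells by class II UMIs per cell, coloured as class II-low (under 10 UMIs) or mature DC. Right, percentage of cells of each class by the number of the 8 genes with a UMI. The 139 mature DC and 82 class II-low cells both have a median of 5 genes, against 0 in cDC2 and other class II cells (other MHCII in the plot).

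Class II RNA of the mature-gate cells ranged widely, and the limit of 10 UMIs was a choice within that range. Of 221 cells, 82 had 0 to 9 class II UMIs and 12 had 10 to 19, while 28 had 20 to 49, 18 had 50 to 99, 42 had 100 to 199 and 39 had 200 or more. The class II-low cells numbered 10, 15, 25 and 32 in the libraries of day 5 and day 14, or 32.3%, 45.5%, 41.7% and 33.0% of the mature-gate cells. Their median class II count was 1 or 2 UMIs in every library, against 99 to 174 in mature DC, while their median total of 2071 to 4197 UMIs compared with 3433 to 5079. They held Batf3 (321 CPM), Irf8 (1319 CPM) and Flt3 (171 CPM), genes expressed in the dendritic lineage, and 0 UMIs of Cd209a, Clec10a, Cd3e, Ms4a1, Ncr1 and Mrc1. These genes come from a longer list that was counted. Their levels are given without those of other classes and do not establish what the class II-low cells are. Cells passing the T, B, natural killer or border-associated macrophage gates were excluded from this set beforehand. Low counts of Cd3e, Ms4a1, Ncr1 and Mrc1 were thus set by the gating. Part of the class II signal of a cell can be free RNA, and this was not tested.

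The class II-low cells carried the migration genes at higher levels than mature DC. Ccr7 stood at 5192, 5612, 4297 and 4308 CPM in them, above mature DC in 4 of 4 libraries by 0.57 ± 0.12 (log2 and SE, adjusted p = 0.00103), although without the filter on low counts the adjusted p was 0.106. Fscn1 stood at 3348, 3131, 4561 and 5313 CPM, higher by 0.93 ± 0.12 (adjusted p = 9.91e-07). Cacnb3 stood at 1025, 1023, 1294 and 826 CPM, higher by 1.21 ± 0.19 (adjusted p = 2.69e-05). Il4i1 went the other way, at 307, 465, 415 and 585 CPM, lower in 4 of 4 libraries with a difference of -0.85 ± 0.20 (adjusted p = 0.00265, and 0.0511 with DESeq2). Ccl17 spanned 0, 62, 214 and 1441 CPM and was higher in 3 of 4 libraries by 1.38 ± 0.34 (adjusted p = 0.00404, but 0.910 with DESeq2 and 0.0592 with stricter gates). Ccl22, Il12b and Socs2 differed by 0.46, -0.58 and 0.47 with adjusted p-values of 0.176, 0.293 and 0.127, and without day 5 replicate 1 Ccl22 (0.65, adjusted p = 0.0042) and Il12b (-0.90, adjusted p = 0.0198) were called. Of 1167 genes tested 16% were called, 8.14% higher and 7.88% lower. Cells with none of the 8 members numbered 8 of 139 mature DC and 0 of 82 class II-low cells. Their part in the member differences was not tested. Outside the members, Ccl5 (1.55), Il15 (1.47), Epsti1 (1.35) and Cd80 (1.30) were higher in the class II-low cells and Socs3 (-2.0) was lower. Class II genes set the split, and the large differences of their companions H2-DMb2 (-6.47), H2-DMa (-3.31) and Cd74 (-2.89) describe it.

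Co-expression was then read cell by cell. At least 4 of the 8 members were detected in 115 of 139 mature DC (82.7%) and 76 of 82 class II-low cells (92.7%), against 5 of 435 cDC2 and 8 of 362 other class II cells. Of the 248 cells with at least 4 members, 46.4% were mature DC and 30.6% class II-low cells, and 22 belonged to no single class because they passed gates of more than 1. Thinned to 1000 UMIs a cell, 48.2% of mature DC and 65% of class II-low cells still showed at least 4. Within mature DC the members did not run evenly with subset marks. Ccr7 was detected in 113 of 119 cells without cDC1 or cDC2 marks, but in 9 of 18 cells with a cDC1 mark. With a cDC1 mark these were 0 of 3 and 1 of 4 cells on day 5 and 2 of 3 and 6 of 8 on day 14. Without a mark they were 14 of 17 and 14 of 14, and then 31 of 31 and 54 of 57. The gap was thus widest on day 5 and rests on few marked cells.

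Among the 221 mature-gate cells the closest pairs were Fscn1 with Cacnb3 (Pearson r = 0.533 on log2 of UMIs per 10000 plus 1) and Ccl17 with Ccl22 (0.525), followed by Fscn1 with Socs2 (0.453) and Ccr7 with Fscn1 (0.434). Ccr7 and Ccl17 showed an r of 0.0343 and Il12b and Socs2 of -0.06. These cells come from 4 libraries and share each library's depth and day, so the values are descriptions. Within class II-low cells alone the values were 0.311 for Fscn1 with Cacnb3, 0.265 for Fscn1 with Socs2 and 0.223 for Ccr7 with Fscn1, but 0.599 for Ccl17 with Ccl22. Within mature DC alone they were 0.532, 0.501, 0.484 and 0.454 in the same order, so the leading pair differed between the classes. In mature DC of day 5, Ccl22 was detected in 6 of 6 cells with Ccl17 and in 12 of 33 without it, and on day 14 in 13 of 14 with and 54 of 86 without.

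The genes with the most similar pattern to each member were sought over 53 sums of class and library among 5897 genes. Ccl17 was closest to Ccl22 (r = 0.847), and Ccl22 was closest to Relb (0.937). Cacnb3 and Socs2 were closest to Lad1 (0.962 and 0.932), and Il12b to Cacnb3 (0.943). Ccr7 and Il4i1 were closest to Tmem123 (0.898 and 0.924), and Fscn1 to Tspan3 (0.915). The sums share libraries and so are not independent.

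**Figure D3:**
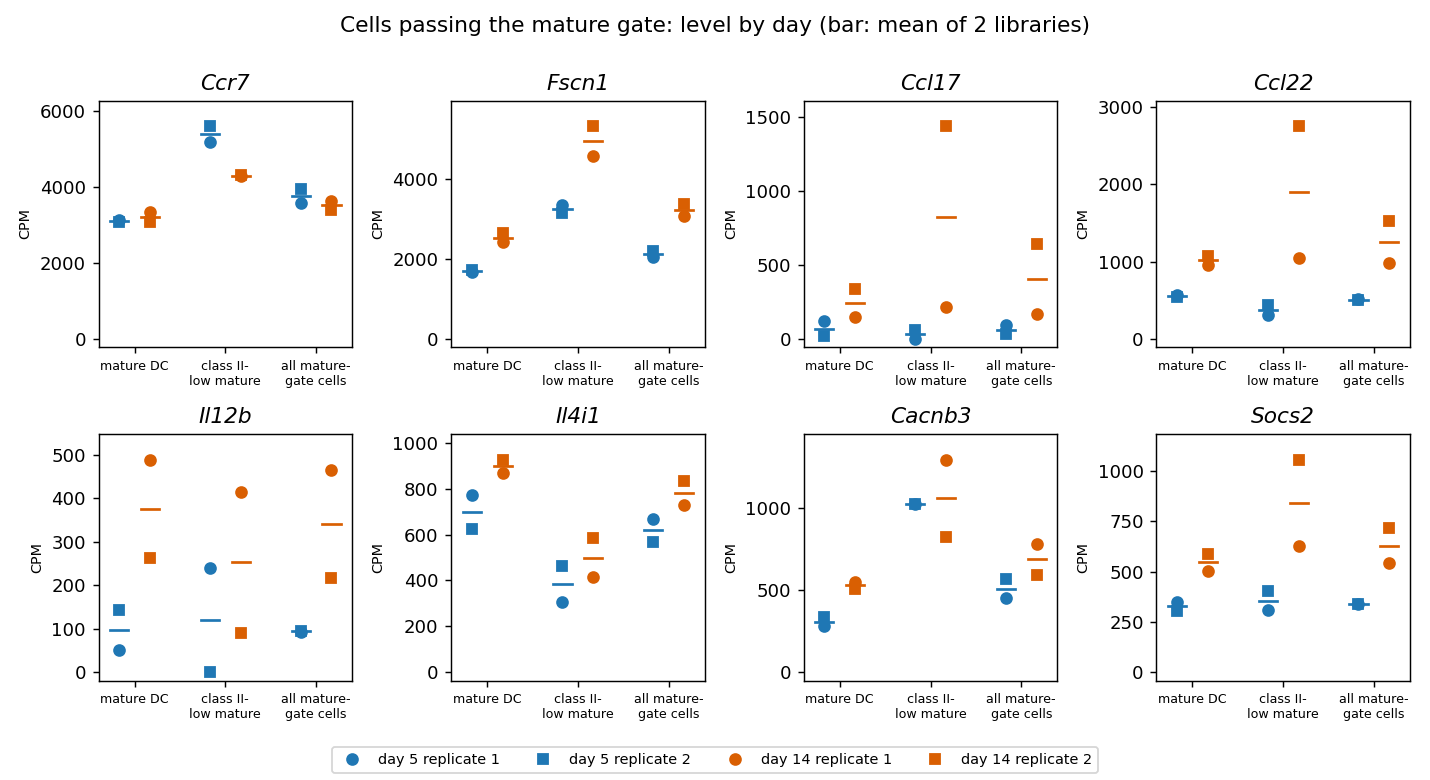
Level of each gene (CPM, linear axis from 0) in mature DC, class II-low mature cells and both together, with 1 point per library, colour by day and a bar at the mean of 2 libraries. Ccr7 of all mature-gate cells lies between 3407 and 3944 CPM in the 4 libraries, while Ccl22 goes from 506 and 511 CPM on day 5 to 986 and 1527 CPM on day 14.

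The share of mature cells among the dendritic cells was higher in both libraries of day 14 than in both of day 5. Mature DC numbered 21 of 284 and 18 of 259 conventional DC on day 5 and 35 of 208 and 65 of 330 on day 14. The shares were 7.17% ± 0.31 on day 5 and 18.3% ± 2.03 on day 14 (SD, n = 2 each), with no overlap and a difference of 11.1 percentage points. A two-sided exact permutation test gave p = 0.33, the smallest value that 2 libraries against 2 allow. With class II-low cells counted on both sides of the ratio, the shares were 10.5% and 12% and then 25.8% and 26.8%. The share of mature-gate cells among all cells used was 1.24% and 0.957% and then 2.33% and 4.20%. The part of the higher UMI floor of the day 14 libraries in these shares was not tested. The share of class II-low cells among mature-gate cells overlapped between days.

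Summed over all conventional DC, all 8 members rose from day 5 to day 14, beside 12.5% of 7778 genes called and 6.49% called higher. The log2 rises were 1.53 ± 0.13 for Ccr7 (adjusted p = 1.93e-05), 1.93 ± 0.15 for Fscn1 (1.24e-05), 2.05 ± 0.17 for Ccl22 (1.38e-05) and 3.49 ± 0.39 for Il12b (0.000132). Il4i1 rose by 1.74, Cacnb3 by 2.20, Socs2 by 2.16 and Ccl17 by 1.49, the last with an adjusted p of 0.0174 that DESeq2 gave as 0.518. With day 5 replicate 1 left out the Ccl17 rise was 2.77. With day 5 replicate 2 left out it was 0.89, and Il12b then rose by 4.14. The share of mature DC in these sums differed between the days by the values above. More mature cells and more RNA per cell cannot be told apart in these sums, so the levels within the mature gate were compared next. In the same sums 10 of the 12 other mature DC genes rose and none fell. Of 8 NF-kappa B genes 3 rose, led by Relb (1.19), and Nfkb1 (-0.62) fell. Of 8 costimulation genes tested, Cd40 (1.22) and Cd274 (1.13) rose and Tnfsf9 (-0.97) and Cd86 (-0.41) fell. Socs3, a suppressor of cytokine signalling like Socs2, fell by 1.17.

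Within all mature-gate cells, a class added after the data were seen because 1 library held only 18 mature DC, the Ccr7 levels of the days overlapped. They were 3595 and 3944 CPM on day 5 and 3635 and 3407 CPM on day 14, a difference of -0.07 (log2, adjusted p = 0.856). Of the 8 members 5 were called higher, beside 2.51% of 2506 genes called and 2% called higher. Ccl22 went from 511 and 506 CPM to 986 and 1527 CPM, a rise of 1.34 ± 0.22 (adjusted p = 0.00572). Ccl17 went from 93.0 and 31.6 CPM to 168 and 639 CPM (2.68 ± 0.62, adjusted p = 0.0357), Il12b from 93.0 and 94.9 to 466 and 216 CPM (1.84 ± 0.42, adjusted p = 0.034), and Socs2 from 341 and 337 to 544 and 716 CPM (0.93 ± 0.23, adjusted p = 0.048). Fscn1 went from 2045 and 2204 CPM to 3079 and 3373 CPM (0.63 ± 0.14, adjusted p = 0.0323). For these 5 genes the libraries of the days did not overlap, and neither did they for Il4i1 and Cacnb3, which were not called. The share of all genes without such overlap was not counted. Mature-gate cells with none of the 8 members numbered 4 of 31 and 3 of 33 on day 5 and 1 of 60 and 0 of 97 on day 14, and their part in these levels was not tested. Il4i1 and Cacnb3 differed by 0.36 and 0.46 with adjusted p-values of 0.349 and 0.318. Of 8 costimulation genes tested 2 were called, both higher, namely Pdcd1lg2 (2.90) and Cd40 (1.33). Of the 12 other mature DC genes 4 were called, all higher, namely Tnfrsf4 (1.71), Serpinb6b (1.38), Epsti1 (1.35) and Marcksl1 (0.83).

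Several of these calls stood near the threshold. DESeq2 gave adjusted p-values of 0.468 for Ccl17, 0.151 for Fscn1 and 0.264 for Socs2, and stricter gates gave 0.108, 0.205 and 0.189. Without the cell with the most member UMIs in each class and library, Il12b (1.55, adjusted p = 0.0659) and Socs2 (0.91, adjusted p = 0.0684) were no longer called. With day 5 replicate 1 left out the Ccl17 rise was 3.77, and with day 14 replicate 2 left out it was 1.37. With day 14 replicate 1 left out Ccl17 rose by 3.29 and Il12b by 1.23. Without day 5 replicate 1 the adjusted p of Fscn1 was 0.0838, and without day 14 replicate 2 that of Socs2 was 0.194. In mature DC alone these 5 calls were lost, and the difference in Ccl22 was 0.87 with an adjusted p of 0.0755. In class II-low cells alone Ccl22 rose by 2.39 (adjusted p = 0.0151) and Ccl17 by 4.67 (adjusted p = 0.0484). Fscn1 (0.64), Il12b (1.01) and Socs2 (1.28) were not called there, with adjusted p-values of 0.0556, 0.642 and 0.0773. For Il12b the days overlapped in those cells, at 239 and 0 CPM and then 415 and 90.1 CPM.

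**Figure D4:**
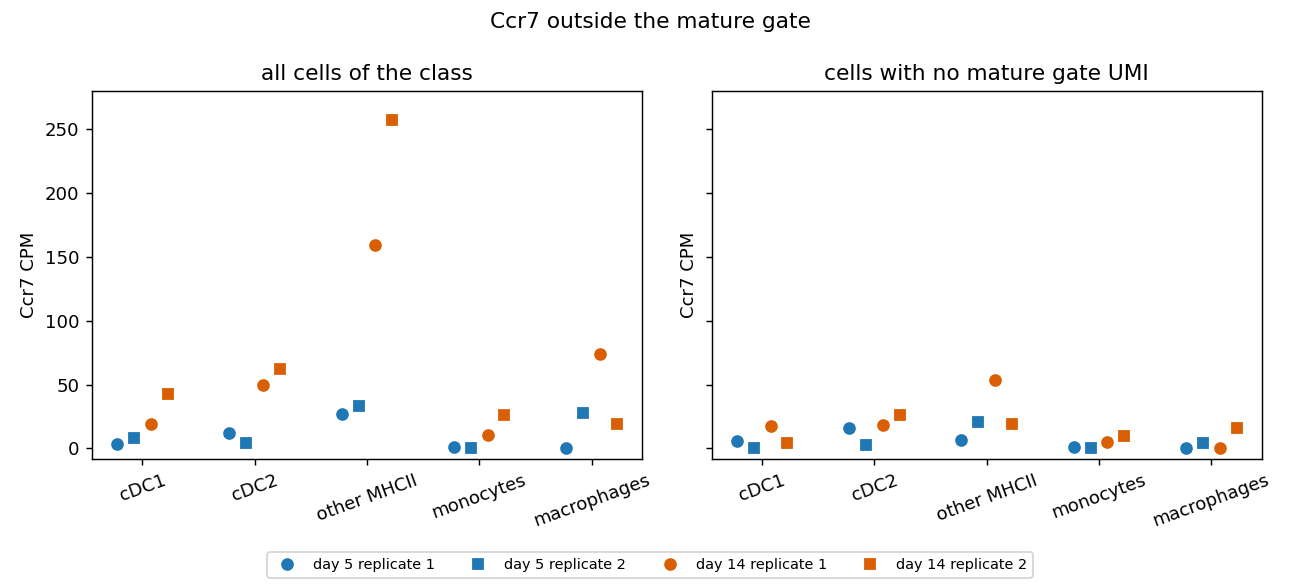
Ccr7 level in antigen-presenting classes outside the mature gate, in CPM with 1 point per library, for all cells of the class (left) and only those lacking any mature-gate UMI (right). Levels in all cells are higher in both day 14 libraries than in both day 5 libraries except in macrophages, and in cells without a mature-gate UMI they are lower on day 14 than in all cells of the class.

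Outside the mature gate Ccr7 rose with time in several antigen-presenting classes, while the T and B cells described below gave no call. In other conventional DC it rose by 3.14 ± 0.36 (log2 and SE, adjusted p = 0.000113). This class pools cDC1, cDC2 and cells with Epcam. The cells with Epcam numbered 113 and 81 on day 5 and 10 and 16 on day 14. Their mean Ccr7 level of 2.82 CPM was the lowest of the gated classes, and their part in the rise was not tested. The day effect in mature DC was smaller than in other conventional DC by 2.83 ± 0.39 on the log2 scale (interaction of day and class, adjusted p = 5.27e-08). With mature DC as the class, none of the other 7 members was called in that interaction by edgeR or DESeq2. Fscn1 and Il4i1 had an unadjusted p under 0.05 in edgeR, beside 1.1% of 6924 genes called and 0.361% called lower. With all mature-gate cells in place of mature DC, 1 of these 7 members was called. Ccr7 stood at 12.1 and 4.10 CPM in cDC2 on day 5 and at 49.3 and 61.8 CPM on day 14 (2.79 ± 0.45, adjusted p = 0.00168, and a rise of 3.74 without day 5 replicate 1). In other class II cells it stood at 27.2 and 33.0 and then 159 and 257 CPM (2.81 ± 0.33, adjusted p = 0.00237, and 0.0641 without day 14 replicate 2). Monocytes held 1, 0, 12 and 68 Ccr7 UMIs (adjusted p = 0.0115, and 0.0609 with DESeq2), a pooled ratio of 31.5 (95% interval 5.50 to 1260, counting error only). The highest of these levels, 257 CPM, compares with at least 3072 CPM in mature DC.

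On day 14 much of the Ccr7 outside the gate lay in cells with some mature-gate RNA. Of cDC2, 22 and 23 cells with such a UMI held 18 and 26 Ccr7 UMIs in the day 14 libraries, against 7 and 13 UMIs in the 76 and 94 cells with none. In cells with none, cDC2 held 15.6 and 2.41 CPM on day 5 and 18.3 and 26.0 CPM on day 14, and other class II cells 6.73 and 21.0 and then 53.4 and 19.2 CPM. The days overlapped in other class II cells and did not in cDC2. For other conventional DC without such a UMI the rise was 1.80 with an adjusted p of 0.0722. In cDC1, cDC2, other class II cells, monocytes and macrophages too few counts were left for a test. In T and B cells with no mature-gate UMI Ccr7 differed by -0.22 and -0.44 (adjusted p = 0.861 and 0.633). In microglia Ccr7 differed by 0.71 in all cells (adjusted p = 0.592) and by 2.82 in cells with no mature-gate UMI (adjusted p = 0.0392).

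The remaining members outside the gate were sparse. The cDC2 passed the filter on low counts for Ccr7, Ccl17, Ccl22 and Il4i1, and 4.96% of 5058 genes were called (2.83% higher). Il4i1 rose in cDC2 by 1.76 ± 0.40 (adjusted p = 0.0182, but 0.331 with DESeq2, 0.148 with stricter gates and 0.0785 without day 5 replicate 2). Ccl17 in cDC2 differed by 0.91 with an adjusted p of 0.293. Without the cell with the most member UMIs of each library it rose by 2.48 (adjusted p = 0.0341), and without day 5 replicate 1 by 2.49. In cDC2 with no mature-gate UMI the difference was -0.25, with an adjusted p of 0.893. Ccl22 in cDC2 differed by 0.42 (adjusted p = 0.637).

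In other conventional DC, where 10.4% of 7536 genes were called and 5.1% called higher, Ccl17 rose by 1.31 ± 0.34 (adjusted p = 0.0266, but 0.662 with DESeq2), and by 2.53 without day 5 replicate 1. In those with no mature-gate UMI the Ccl17 levels of the days overlapped, at 114 and 27.2 CPM and then 58.5 and 116 CPM, and the difference was 0.34 with an adjusted p of 0.723. Il4i1 rose by 1.60 ± 0.38 (adjusted p = 0.0188), and lost the call with DESeq2 (0.200), with stricter gates (0.0777) and without day 14 replicate 1 (0.0582) or day 5 replicate 1 (0.0725). Ccl22 differed by 1.03 with an adjusted p of 0.0567, and by 2.54 (adjusted p = 0.00232) without the cells with the most member UMIs. The mix of subsets in other conventional DC changed between the days, as given above, and its part in these differences was not tested. In other class II cells, with 3.37% of 4277 genes called and 1.82% called higher, Il4i1 rose by 2.62 ± 0.37 (adjusted p = 0.00583, and 0.193 without day 14 replicate 2). Ccl17 and Ccl22 there differed by 1.43 and 1.84 with adjusted p-values of 0.549 and 0.133. No member of cDC1 passed the filter on low counts.

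The lineages differed in their chemokines. Against cDC2, cDC1 held less Ccl17 (mean 13.9 against 190 CPM, -3.78 ± 0.33 on the log2 scale, adjusted p = 2.58e-08), with a difference of -4.91 without day 14 replicate 1 and -3.06 without day 14 replicate 2. They also held less Ccl22 (9.11 against 31.4 CPM, -1.52 ± 0.43, adjusted p = 0.0126, with 0.0589 by DESeq2). The adjusted p was 0.160 with day 14 replicate 2 left out and 0.0524 with day 5 replicate 2 left out, and the difference was -2.20 with day 14 replicate 1 left out. The other 6 members had too few counts for a test, and 22.7% of 4768 genes were called, 12.2% lower. In the cells with Epcam, Ccl17 of day 14 replicate 2 reached 405 CPM from 42 UMIs, 26 of them in 1 of 16 cells.

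Macrophages and monocytes showed members at low levels. Macrophages held 0 and 1 Ccl17 UMIs on day 5 and 11 and 12 on day 14, in 0, 1, 3 and 4 cells (adjusted p = 0.0009, 7.83% of 5671 genes called and 5.89% higher), a pooled ratio of 49.9 (8.10 to 2055, counting error only). Ccr7 in macrophages differed by 1.73 with an adjusted p of 0.272, and all 22 of its UMIs in day 14 replicate 1 lay in 1 cell. In monocytes, where 6.58% of 6917 genes were called and 4.6% higher, Il4i1 differed by 0.51 and was not called. In microglia no member was called by edgeR or DESeq2, with Ccl22 (2.25) and Il4i1 (1.41) at an unadjusted p under 0.05 in edgeR, beside 1.51% of 9329 genes, and Fscn1 differed by -0.39 (adjusted p = 0.685). Without day 14 replicate 1 the Fscn1 difference was -1.10 with an adjusted p of 0.00478. With stricter gates Ccl22 (3.65, adjusted p = 0.014) and Il4i1 (1.87, adjusted p = 0.0203) were called there.

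Fscn1 also changed in the plasmacytoid DC and T-cell gates, where microglial RNA differed between the days. In plasmacytoid DC it fell by 1.63 ± 0.24 (log2 and SE, adjusted p = 0.00143, 6.06% of 5279 genes called and 2.24% lower), and in T cells by 1.64 ± 0.33 (adjusted p = 0.00742, 6.96% of 7613 genes called and 4.78% lower). The summed microglial gate genes stood at 2531 and 2574 CPM on day 5 and 1103 and 1122 CPM on day 14 in plasmacytoid DC, and at 1442 and 1840 and then 303 and 162 CPM in T cells. In the plasmacytoid DC gate 46 of 77 and 94 of 144 cells on day 5 and 26 of 81 and 20 of 62 on day 14 also passed the microglial gate. With such cells left out, plasmacytoid DC held 2, 4, 0 and 2 Fscn1 UMIs, too few for a test. T cells then showed a Fscn1 difference of 0.77 with an adjusted p of 0.916. Ccr7 in T cells, where it marks naive and central memory cells, differed by -0.11, and in B cells by -0.41 (adjusted p = 0.603, 3.53% of 2550 genes called). Natural killer cells had no member with enough counts for the test. They held 1 and 0 Ccr7 UMIs on day 5 and 10 and 21 on day 14, or 4.16, 0, 14.4 and 21.5 CPM, a pooled ratio of 8.82 (1.47 to 359, counting error only) with no overlap between the days.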

How the data were processed

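Single-cell RNA of CD45high cells was measured in 4 libraries with the 10x 3' kit. The authors deposited filtered matrices of UMI counts per gene and cell. The submitters' processing notes name Cell Ranger 3.0.1, Seurat 2.3.4 and the GRCm38/mm10 build. The day 14 matrix headers name no software version, so upstream processing and day cannot be told apart.

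Cells with under 200 genes or over 10% mitochondrial UMIs were left out, and 348 cells passing several gates and 876 passing none stayed out of the classes. Doublets were not called; cells over 20000 UMIs were left out as an alternative. UMIs were summed per class and library and tested with the quasi-likelihood test of edgeR 4.0.16 (scaled by TMM, low genes removed with filterByExpr, Benjamini-Hochberg adjustment over all tested genes, called under 0.05), with the library as a block for contrasts between classes and for the interaction. A class needed 20 cells in each library for a planned day test, or 10 in comparisons added later. This minimum was not applied to the planned contrasts between classes or to the interaction, where the smallest library held 18 mature DC. SE is the log2 difference divided by the square root of F. CPM are UMIs scaled to the total of the class in that library. Shares carry exact binomial and levels exact Poisson 95% intervals, for counting error only. DESeq2 1.42.0 was an alternative. The fits were tested on simulated data with known changes.

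Sequences came from RefSeq promoter windows, in which 6 of the 8 members had an entry. Members and lists were chosen with earlier results of these data known, and class II-low cells, the day test of all mature-gate cells and 3 exclusions of cells were added after seeing the data. Text names all members, and list genes by size among those called.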

Additional observations from a re-analysis of the deposited data

Results flagged for a closer look

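In the main fit 1 result differed between groups under the same contrast. With all mature-gate cells in place of mature DC, 1 further member was called. The day effect on Ccr7 was -2.83 on the log2 scale in mature DC relative to other conventional DC (edgeR interaction, adjusted p = 5.27e-08). Mature DC held 3126 and 3084 CPM on day 5 and 3335 and 3072 CPM on day 14, against 5.69 and 3.58 CPM and then 33.4 and 47.5 CPM in the other conventional DC. In the second group, cells with a mature-gate UMI held 22 and 67 Ccr7 UMIs in the day 14 libraries, against 12 and 16 in cells with none. On day 5 they held 1 and 3, against 7 and 1 in cells with none, so the day 5 levels rest on few counts. The other conventional DC pool cDC1, cDC2 and cells with Epcam, whose mix differed between the days as given below. The part of this mix in the interaction was not tested.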

How the results depend on the processing

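The text compares libraries, 2 a day, so calls rest on few residual degrees of freedom, and mature DC, cells with Epcam and border-associated macrophages were too few in 1 library or more for the planned day test. Of 40 called member results 20 kept their call under every alternative that could be fitted. Among them were Fscn1 in plasmacytoid DC, for which the exclusion of microglial-gate cells could not be fitted, and Ccr7 in cDC2. For the latter the exclusion of cells with a mature-gate UMI could not be fitted. That exclusion was not run for all conventional DC, the contrasts between classes or the interaction. Over 439 alternatives 395 kept the call, 42 lost it, 1 gave no adjusted p and 1 turned direction (Fscn1 in T cells, 0.77 in cells with under 4 microglial-gate UMIs). The cause was not tested. Replicate numbers did not pair libraries (r from -0.09 to 0.02 for same-numbered libraries); with the replicate block the counts of genes called were 486 in plasmacytoid DC, 233 in microglia, 360 in other class II cells and 44 in B cells.

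With DESeq2 the genes called were 112 (cDC2), 128 (plasmacytoid DC), 428 (all conventional DC), 254 (monocytes), 193 (macrophages), 82 (other class II cells), 269 (T cells), 33 (mature-gate cells), 331 (other conventional DC), 540 (cDC1 against cDC2), 15 (interaction) and 59 (class II-low against mature DC). Without a filter they were 513 (plasmacytoid DC), 767 (monocytes), 440 (microglia), 384 (other class II cells), 263 (B cells), 138 (mature-gate cells) and 301 (class II-low). Stricter gates gave 301 (other class II cells), 41 (mature-gate cells), 23 (interaction) and 98 (class II-low). Without cells bearing a mature-gate UMI 217 were called in microglia and 349 in T cells, and with under 4 microglial UMIs 21 in plasmacytoid DC and 25 in T cells. Mature DC alone gave 28, class II-low cells alone 30, and all mature-gate cells in the interaction 123.

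Leaving out 1 library gave 741 to 1129 genes for cDC1 against cDC2, 75 to 193 for class II-low against mature DC, 17 to 208 in B cells, 361 to 729 in T cells, 715 to 1349 in all conventional DC, 90 to 125 in mature-gate cells, 248 to 332 in cDC2, 351 to 551 in macrophages, 210 to 447 in microglia, 166 to 726 in monocytes, 17 to 312 in other class II cells, 489 to 1098 in other conventional DC, 212 to 573 in plasmacytoid DC, 39 to 53 for the interaction and 839 to 1613 for mature against other conventional DC.

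Uncalled differences that changed sign were Ccl17 (-0.25) and Ccl22 (-2.38) in cDC2 and Ccl22 in other conventional DC (-0.85) without mature-gate UMIs, Socs2 in T cells (0.020) and Ccr7 in mature-gate cells (0.15) without a filter, Ccr7 in mature DC alone (0.044), and in the interaction Ccl17 (-0.70) and Ccl22 (-0.80) without top cells and Ccl22 with DESeq2 (-0.0030) and stricter gates (-0.45). The day difference in mature DC with a Ccl17 UMI became 3.55 points when thinned. With 1 library left out, Il4i1 ran from -0.58 to 6.59 in monocytes, Fscn1 from -0.39 to 1.96 in macrophages and -1.10 to 0.067 in microglia, Ccl17 from -1.42 to 8.73 in other class II cells, Ccr7 from -0.74 to 0.21 in B cells and -0.11 to 0.024 in mature-gate cells, Socs2 from -0.52 to 0.56 in T cells, and Ccl22 from -0.21 to 0.51 in the interaction and -0.17 to 0.65 for class II-low against mature DC.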

Other observations

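The make-up of the conventional DC outside the mature gate also differed between the days. Cells with Epcam numbered 113 and 81 on day 5 (4.51% and 2.35% of all cells) and 10 and 16 on day 14 (0.388% and 0.693%). The cDC1 numbered 43 to 47 cells a library on day 5 (1.88% and 1.25% of all cells) and 65 and 132 on day 14 (2.52% and 5.72%). Neither share overlapped between the time points, and an exact permutation test of 2 libraries against 2 cannot pass 0.05.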
